A study of Macaca mulatta with 36 samples.

Results

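This report describes 45 genes for chemokines and chemokine receptors in the hippocampus of rhesus macaques with and without encephalitis caused by simian immunodeficiency virus (SIVE). The members are the genes whose symbol begins as a chemokine (CCL, CXCL, CX3C or XCL) or a chemokine receptor (CCR, CXCR, XCR, ACKR or CCRL), taken from array probe sets that carry exactly 1 gene symbol. CXCL10, CCL2, CCL8 and CCL3 were left out by the same rule; their own differences were 1.94 to 5.19 on the log2 scale, so counts over the members do not describe the whole family. Each gene was represented by its probe set with the highest mean signal over all arrays, which gave 45 of 14132 genes, 28 of them ligands and 17 receptors. No measured difference between the groups entered this choice, although the set was drawn up with earlier results of these data known.

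Hippocampal total RNA of 18 male animals was hybridised to Affymetrix rhesus arrays, with 2 arrays for each animal. The animals labelled SIVE number 9 (2 to 6 years old) and the uninfected Control animals number 9 (3 to 8 years old). An anti-CD8 treatment, an antibody given in macaques to deplete CD8 T cells, is recorded as Yes for SIVE 1 to SIVE 4, all 6 years old, and for Control 8 (4 years old) and Control 9 (3 years old). SIVE 5 to SIVE 9, 2 to 5 years old, and Control 1 to Control 7, 3 to 8 years old, carry the label No. The groups contain no infected animal without encephalitis, so infection and encephalitis cannot be told apart, and the virus strain and time after infection are not given in the sources used here.

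Chemokines are small secreted proteins that direct the migration of leukocytes. They bind 7-helix receptors on the surface of their target cells, which signal through inhibitory G proteins. Atypical chemokine receptors bind chemokines without this G protein signal and instead carry them across cells, take them up or present them. In the brain, chemokines made by glia and endothelial cells are known to take part in the entry of monocytes and lymphocytes during viral infection, and the CX3CL1 to CX3CR1 axis links neurons with microglia.

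The signals are log2 values, so a difference of 1 is a doubling of signal. They come from 1 value for each animal, the mean of its 2 arrays, and each difference is SIVE minus Control with its standard error (SE). A probe set's level depends on its own probes, so the order of probe set signals is not an order of transcript amounts. The duplicate arrays of an animal differed for the members by an SD between 0.068 and 0.26, with a median of 0.15. Neuron markers were measured in both groups above the 95th percentile of probe sets for reporter genes that macaques do not carry (5.39, 59 probe sets), as for SYT1, with a mean of 12.15 and an SD of 0.20 over the SIVE animals, and of 12.21 and 0.18 over the Control animals, and none of 4 measured neuron markers and 5 measured hippocampal neuron markers passed the test, by limma with an adjusted p under 0.05. SIVE 2, SIVE 3 and Control 8 stand apart from the other animals: their control transcripts had 3′ signal above 5′ signal by 0.96 to 1.45, against 0.10 to 0.47 in the other animals. All 3 carry the anti-CD8 label, but the other labelled animals, SIVE 1, SIVE 4 and Control 9, stood at 0.10, 0.28 and 0.17. High 3′ signal was thus seen only with the label, and not in every labelled animal. In tissue RNA, fewer cells of a type and less RNA in each cell cannot be told apart.

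In SIVE, 7 of the 45 members were higher than in Control and none was lower, by limma with Benjamini-Hochberg adjustment and a threshold of 0.05. The risers were the leukocyte attractants CCL5 and CCL4L1, the lymphoid chemokine CCL19, the homing chemokine CCL25, and 3 atypical receptors, ACKR1, ACKR3 and CCRL2. Their differences ran from 0.23 for CCL25 to 1.27 for CCL19 and for ACKR1. Among all genes, 5.72% were called higher and 1.51% lower. At an unadjusted p under 0.05, 14 of 45 members differed, against 25.6% of all genes. The median difference of the 45 members was -0.02, equal to the median over all genes at 2 decimals, and 20 members lay above 0 and 25 below it. No member separated the groups completely on its representative probe set, against 1.84% of all genes with every SIVE animal above every Control animal. Without SIVE 2, SIVE 3 and Control 8, the count was 8 higher and 0 lower (all genes: 7.36% and 2.92%), with CCL25 lost and CXCL8 and CXCL9 gained. In those 15 animals 3 members (ACKR1, CCRL2 and CXCL9) had every SIVE animal above every Control animal, as did 2.89% of all genes. With the anti-CD8 label as a term the count was 11, with 9 higher and 2 lower, CCL21 and CCR4, and 7.49% of all genes were then called higher and 5.90% lower.

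**Figure D1:**
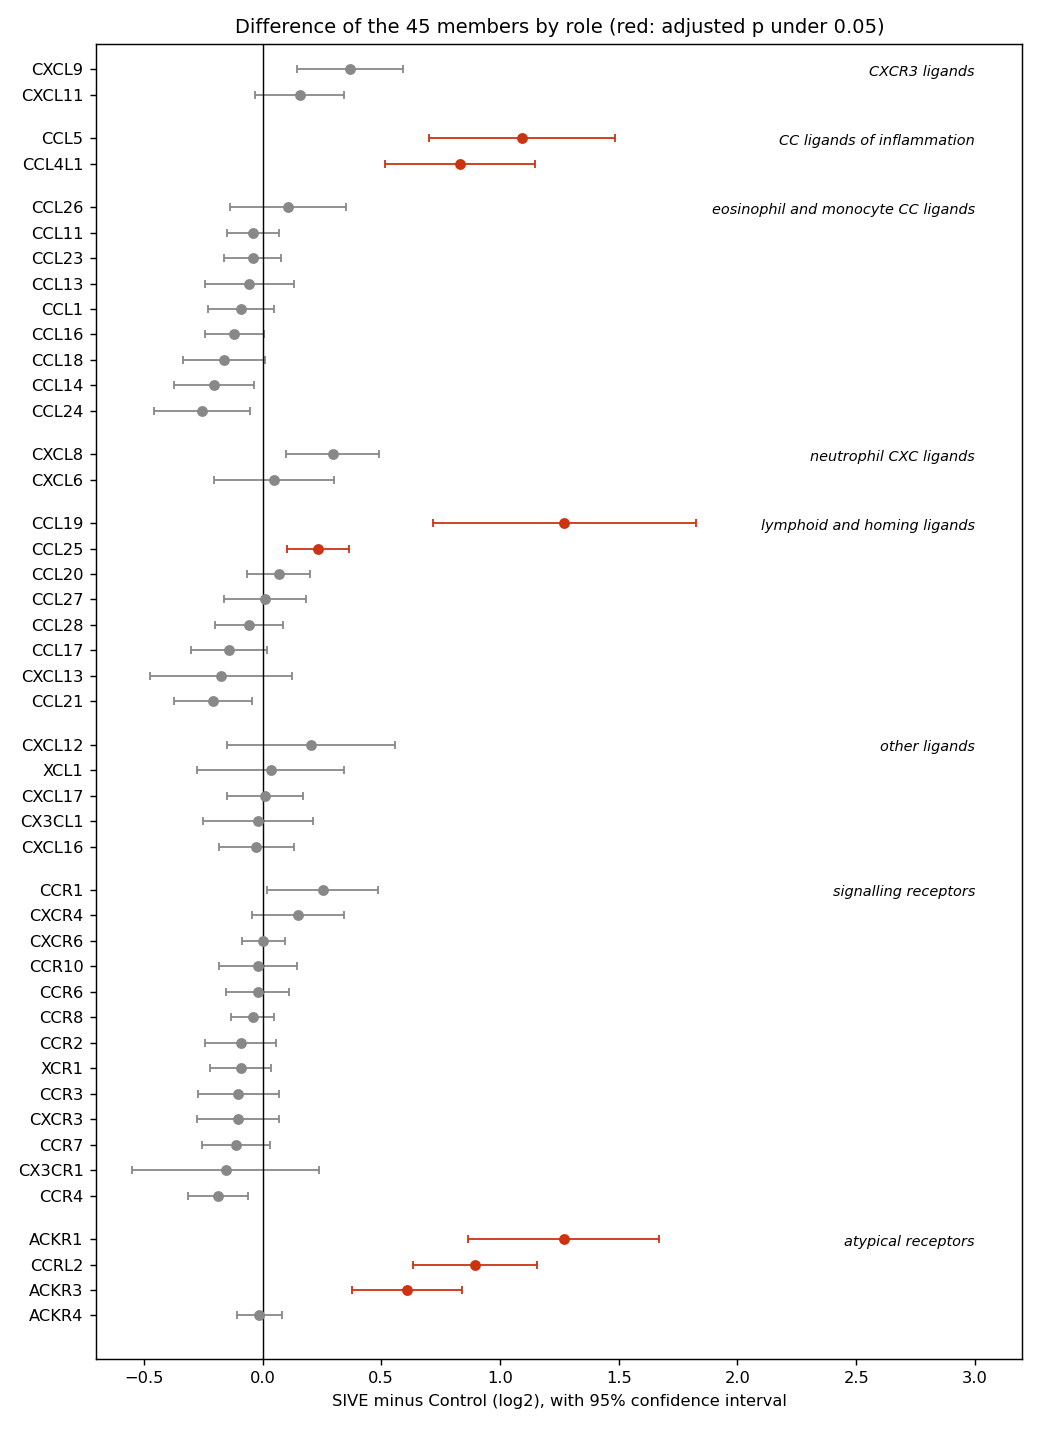
SIVE minus Control difference (log2, x axis) of each of the 45 members (y axis, 9 animals a group), grouped by role, with 95% confidence intervals from limma. The 7 members in red passed an adjusted p of 0.05, all of them higher in SIVE, and no signalling receptor is among them.

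CCL5 and CCL4L1, the inflammatory CC ligands in the set, both rose. CCL5, also called RANTES, attracts T cells and monocytes, and CCR1 and CCR3 are among its receptors. Its signal had a lowest, median and highest value of 6.00, 6.77 and 7.51 over the 9 SIVE animals and of 5.12, 5.58 and 6.37 over the 9 Control animals. Control 5 was the highest Control animal, and the other 8 lay at or below 5.89, under every SIVE animal. The means were 6.76 ± 0.50 (SD, n = 9) in SIVE and 5.66 ± 0.34 (n = 9) in Control, a difference of 1.09 ± 0.19 (SE), or 2.13-fold, with a limma adjusted p of 9.54e-04.

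The other probe set of CCL5 separated the groups. It lay between 5.57 and 7.20 (median 6.46) in SIVE and between 4.44 and 4.84 (median 4.66) in Control. The difference was 1.68 ± 0.15 (limma adjusted p = 2.50e-07), and since the Control animals lay below the reporter gene percentile of 5.39, it can understate the change. Control 5, the highest Control animal on the brighter probe set, was at 4.66 on this one, inside the Control range. Both probe sets had their highest value in SIVE 2 and their lowest SIVE value in SIVE 8.

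CCL4L1 is a copy of CCL4, also called MIP-1 beta, which attracts monocytes and T cells. The probe set lay between 5.78 and 7.13 (median 6.58) in SIVE and between 5.40 and 6.19 (median 5.72) in Control. All SIVE animals but SIVE 8 were above every Control animal. The difference was 0.83 ± 0.15, or 1.78-fold, with a limma adjusted p of 0.0016. CCL4 and its copies are nearly identical in sequence, so the probe set may read more than 1 of them. The other probe set of CCL4L1 differed by 0.02 ± 0.06 and did not pass (limma adjusted p = 0.86), with means of 5.76 in SIVE and 5.73 in Control.

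**Figure D2:**
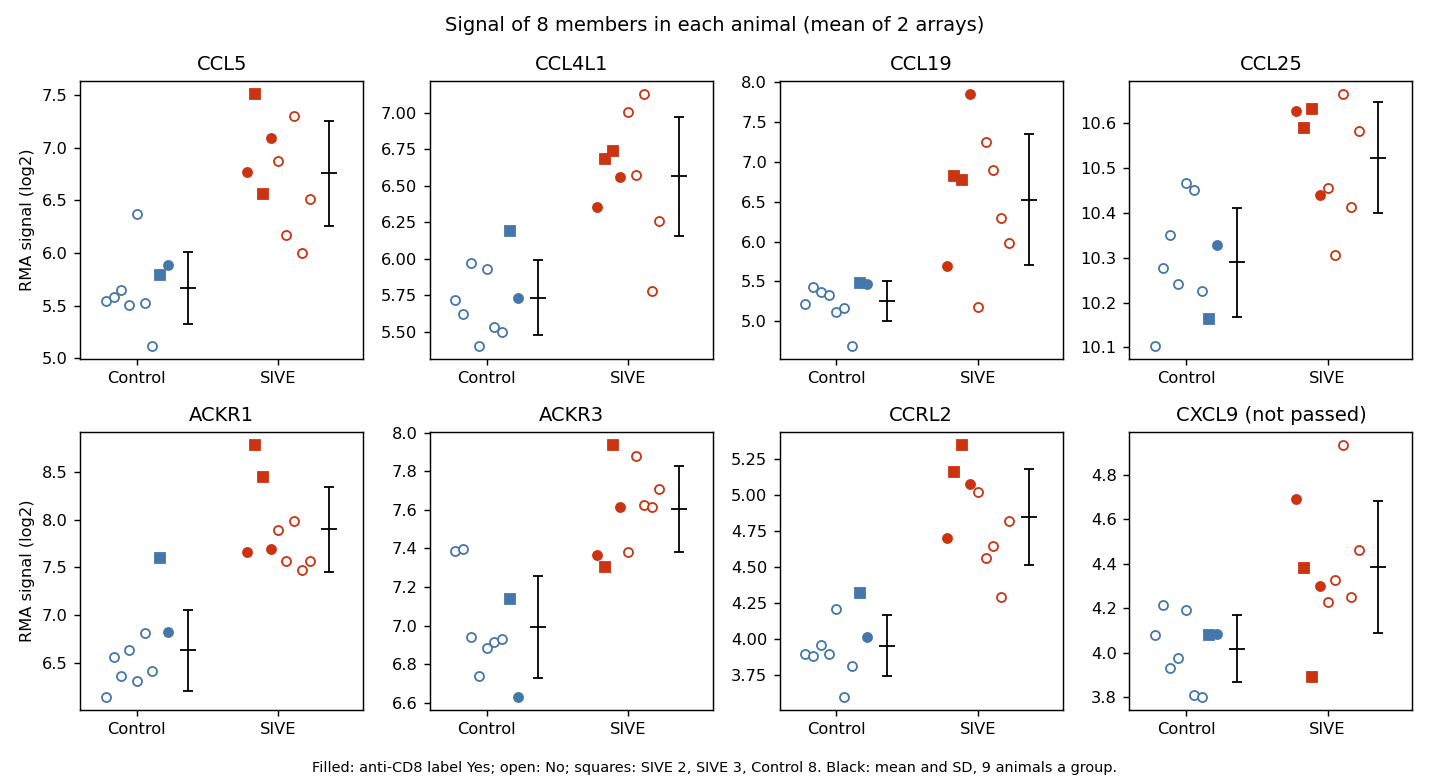
RMA signal (log2, y axis; each panel has its own range) of 8 members in every animal, on the representative probe set. Open symbols are animals without and filled symbols animals with the anti-CD8 label, squares are SIVE 2, SIVE 3 and Control 8, and black marks show the mean and SD of 9 animals. CCRL2, CCL4L1 and CCL19 each have 8 SIVE animals above all Control animals, and the ninth inside the Control range.

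CXCL9 and CXCL11 attract activated T cells and natural killer cells through CXCR3 and are known as genes induced by interferon gamma. They lie on either side of CXCL10 in the RefSeq gene order (assembly T2T-MMU8v2.0). Neither passed on its representative probe set. CXCL9 lay between 3.89 and 4.94 (median 4.33) in SIVE and between 3.80 and 4.21 (median 4.08) in Control, so 8 of 9 SIVE animals were above every Control animal. SIVE 3 was at 3.89, inside the Control range. The difference was 0.37 ± 0.11, with a limma adjusted p of 0.0529, and it passed without the 3 animals of high 3′ signal (0.45, adjusted p = 0.0152) and without SIVE 3 alone (0.43, adjusted p = 0.0115). Both group means of CXCL9 lay below the reporter gene percentile of 5.39.

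The 2 probe sets of CXCL11 differed in whether the gene rose. On the brightest, the signal lay between 8.41 and 8.94 (median 8.68) in SIVE and between 8.30 and 8.96 (median 8.47) in Control. The groups overlapped over nearly the whole range, and the difference of 0.16 ± 0.09 did not pass (limma adjusted p = 0.32). On the other probe set the SIVE animals lay between 6.57 and 9.56 (median 7.89) and the Control animals between 4.29 and 4.75 (median 4.60). Every SIVE animal was above every Control animal, SIVE 7 highest and SIVE 8 lowest. The difference was 3.41 ± 0.28 (limma adjusted p = 8.86e-08). The Control animals lay below the reporter gene percentile of 5.39, so the difference is against a signal not above background and can understate the change. Without SIVE 2, SIVE 3 and Control 8 it was 3.31.

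**Figure D3:**
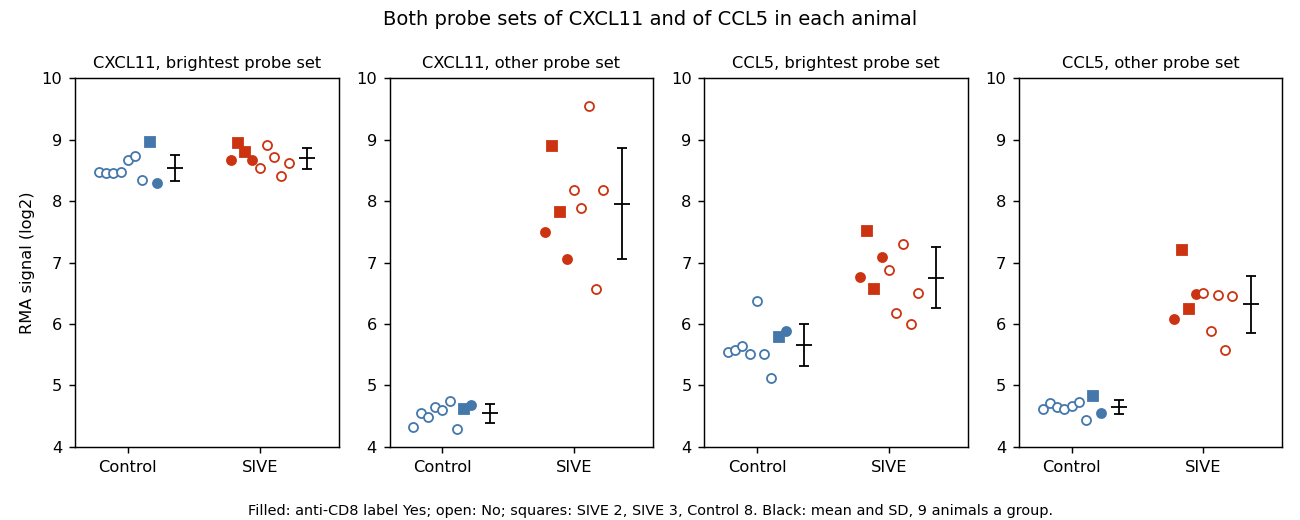
RMA signal (log2, y axis, same range in all panels) of both probe sets of CXCL11 and of CCL5 in 9 Control and 9 SIVE animals, with symbols as in the plot of 8 members and black marks for the mean and SD. The brightest CXCL11 probe set shows overlapping groups near 8.5, while the other one puts Control at 4.29 to 4.75 and SIVE at 6.57 to 9.56.

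Of the 45 members, 32 had 1 probe set and 13 had more, with 63 probe sets in all. Of these, 11 were called higher and none lower, against 3.63% higher and 1.30% lower of all probe sets tested. Only the second probe sets of CXCL11 and CCL5 had every SIVE animal above every Control animal, which 1.20% of all probe sets did. CXCL11, CCL25, ACKR1 and CCL4L1 each had a probe set that passed and one that did not. Probe sets of 1 gene share animals and RNA and are not replicates.

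**Figure D4:**
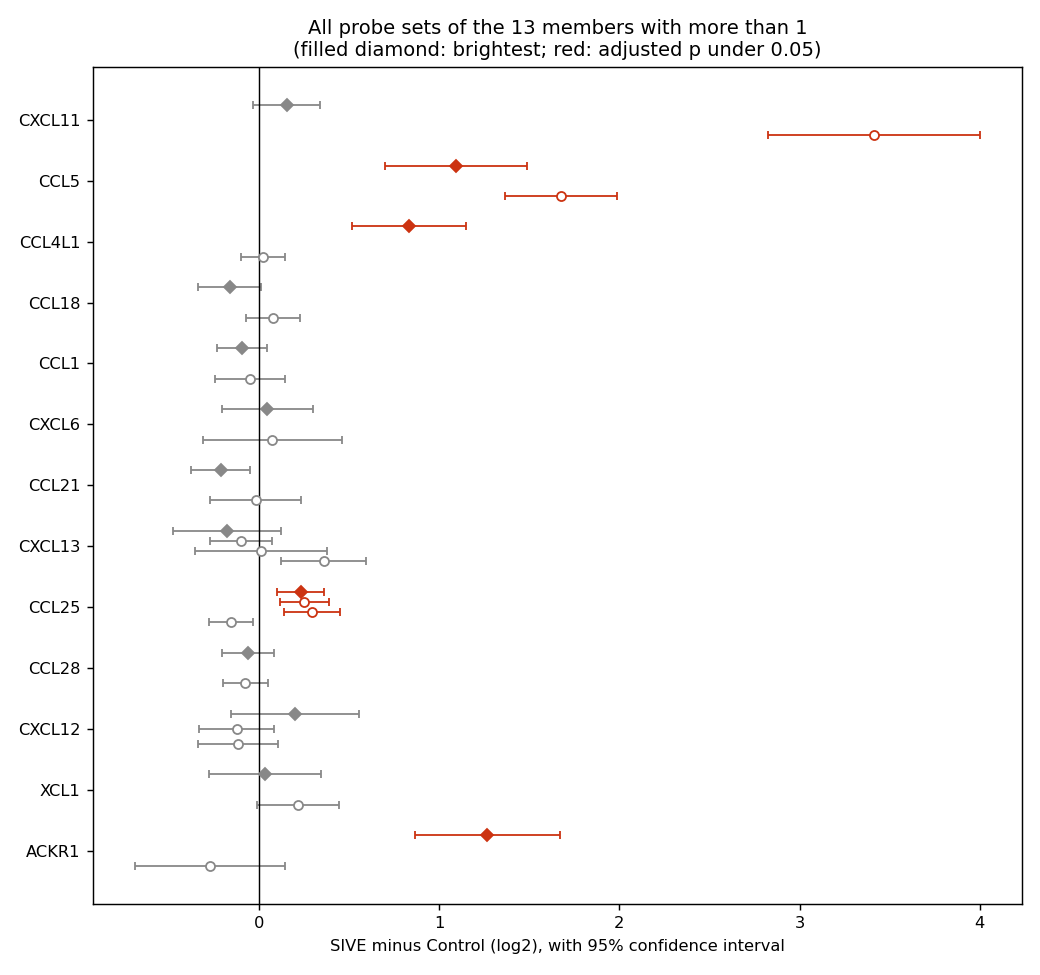
SIVE minus Control difference (log2, x axis) with 95% confidence intervals for every probe set of the 13 members that have more than 1 (y axis). Filled diamonds are the brightest probe set of the gene, open circles the others, and red marks an adjusted p under 0.05. The second CXCL11 probe set, at 3.41, lies farthest to the right, and the 2 probe sets of ACKR1 lie on opposite sides of 0.

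CCL19 and CCL25 rose among the 8 lymphoid and homing ligands, and the other 6 did not pass. CCL19 guides T cells and dendritic cells that carry CCR7 and is known for its role in lymph nodes. Its signal lay between 5.18 and 7.85 (median 6.77) in SIVE and between 4.69 and 5.48 (median 5.33) in Control. SIVE 4 was highest, SIVE 6 and SIVE 7 followed at 7.24 and 6.90, and SIVE 5 at 5.18 lay inside the Control range. The SD was 0.82 in SIVE and 0.25 in Control (n = 9 each), and the difference was 1.27 ± 0.26, with a limma adjusted p of 0.00583. The Control mean of 5.25 lay below the reporter gene percentile. CCL21, the other CCR7 ligand and the neighbour of CCL19 in the RefSeq gene order, was at 6.23 ± 0.14 (SD, n = 9) in SIVE and at 6.44 ± 0.19 in Control (limma adjusted p = 0.134). The receptor CCR7 was at 7.19 in SIVE and 7.30 in Control and did not pass (limma adjusted p = 0.354).

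CCL25 is known as the ligand of CCR9 that draws T cells to thymus and gut. The signal lay between 10.31 and 10.67 (median 10.58) in SIVE and between 10.10 and 10.47 (median 10.28) in Control, and 5 SIVE animals were above every Control animal. The difference of 0.23 ± 0.06 was the smallest of the 7 risers, 1.18-fold, with a limma adjusted p of 0.0331. Of its 4 probe sets, 3 rose, by 0.23, 0.25 and 0.30, and the dimmest differed by -0.15 ± 0.06 and did not pass (limma adjusted p = 0.144). The call ended without the 3 animals of high 3′ signal (0.19, adjusted p = 0.0953). It also ended in 9 of the 18 fits that left out 1 animal (SIVE 1, 3, 7 or 9, or Control 1, 2, 4, 7 or 8), in which the difference was 0.21 to 0.23 and the adjusted p 0.0535 to 0.0675. ELAVL1, next to CCL25 in the RefSeq gene order, differed by 0.16 and did not pass (limma adjusted p = 0.654).

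The other lymphoid and homing ligands were CXCL13, which guides B cells through CXCR5, the skin and gut ligands CCL17, CCL27 and CCL28, and CCL20, the ligand of CCR6. Together with CCL21, their differences ran from -0.21 for CCL21 to 0.07 for CCL20. CXCL13 had 4 probe sets, with differences of -0.18, -0.10, 0.02 and 0.36, none of which passed. The difference of 0.36 ± 0.11, on the dimmest of them, had a limma adjusted p of 0.075.

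Of the 4 atypical receptors, 3 rose and ACKR4 did not pass. ACKR1, the Duffy antigen, binds many inflammatory chemokines, CCL5 among them, on red blood cells and on the endothelium of small veins. Its signal lay between 7.47 and 8.79 (median 7.70) in SIVE and between 6.14 and 7.60 (median 6.56) in Control. Control 8 was the highest Control animal at 7.60 and the next stood at 6.83, under every SIVE animal. The difference was 1.27 ± 0.19, or 2.41-fold, with a limma adjusted p of 2.47e-04. SIVE 2 at 8.79, SIVE 3 at 8.45 and Control 8 are the animals of high 3′ signal and had the highest ACKR1 in their groups. Without these 3 animals the difference was 1.18 (adjusted p = 1.08e-06) and the groups did not overlap.

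The other ACKR1 probe set went the opposite way and did not pass, with 6.32 ± 0.28 (SD, n = 9) in SIVE and 6.59 ± 0.57 in Control, a difference of -0.27 ± 0.20 (limma adjusted p = 0.447). With the mean of all probe sets of a gene in place of the brightest, the ACKR1 difference was 0.50 and fell just short of the threshold (adjusted p = 0.0507). CADM3, next to ACKR1 in the RefSeq gene order, differed by -0.24 and did not pass (limma adjusted p = 0.27). Of 8 endothelial markers measured, PECAM1, CDH5 and VWF rose, by 0.83, 0.52 and 0.98, and CLDN5, TEK, KDR, TIE1 and ERG did not pass. Over all genes, 5.72% were called higher and 1.51% lower. The summed signal of the endothelial markers was 10.29 to 11.32 in SIVE and 9.998 to 10.97 in Control. That of the 2 measured red blood cell markers was 6.35 to 6.63 in SIVE and 6.25 to 6.77 in Control, and neither passed. The part of these cells in the ACKR1 difference was not tested.

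ACKR3, formerly CXCR7, takes up CXCL12 and CXCL11. The signal lay between 7.30 and 7.94 (median 7.62) in SIVE and between 6.63 and 7.40 (median 6.93) in Control. SIVE 1, SIVE 2 and SIVE 5 overlapped with Control 1 and Control 2, which stood at 7.39 and 7.40, and the other 7 Control animals were below every SIVE animal. The difference was 0.61 ± 0.11, or 1.53-fold, with a limma adjusted p of 0.00163. Its ligand CXCL12, which holds leukocytes and progenitor cells in place through CXCR4, was at 7.26 ± 0.40 (SD, n = 9) in SIVE and 7.06 ± 0.37 in Control on its brightest probe set (limma adjusted p = 0.51), and its other 2 probe sets differed by -0.12 and -0.11. CXCR4, the signalling receptor of CXCL12, was at 5.89 ± 0.15 in SIVE and 5.74 ± 0.24 in Control (limma adjusted p = 0.365).

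CCRL2 binds chemerin and holds it at the cell surface, and is known on activated macrophages, neutrophils and endothelium. The signal lay between 4.29 and 5.35 (median 4.82) in SIVE and between 3.60 and 4.32 (median 3.90) in Control. Only SIVE 8, at 4.29, lay below a Control animal, Control 8 at 4.32. The difference was 0.89 ± 0.12, with the lowest adjusted p among the representative probe sets of the members (limma, 9.75e-05). Both means lay below the 95th percentile of the reporter gene probe sets, and a difference between signals this dim can understate the change. ACKR4, which takes up CCL19, CCL21 and CCL25, was at 2.83 ± 0.10 (SD, n = 9) in SIVE and 2.84 ± 0.03 in Control, in the range of signals for reporter genes.

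None of the 13 signalling receptors passed. Their differences ran from -0.19 for CCR4 to 0.25 for CCR1 with a median of -0.09, and 2 of them, those same receptors, had an unadjusted limma p under 0.05. CCR4, a receptor of CCL17 on helper T cells, was at 4.03 in SIVE and 4.22 in Control (limma adjusted p = 0.0791), and its difference passed without Control 6 (-0.21, adjusted p = 0.0408). Both means of CCR4 lay below the reporter gene percentile of 5.39, as did those of CCR2, CCR3, CCR8, CXCR6 and XCR1. CCR1, a receptor of CCL5 on monocytes and other myeloid cells, lay between 5.68 and 6.65 (median 6.19) in SIVE and between 5.64 and 6.30 (median 5.95) in Control, and its difference of 0.25 ± 0.11 did not pass (limma adjusted p = 0.199). CCR3, another receptor of CCL5, was at 4.34 in SIVE and 4.44 in Control. CXCR3, the receptor of CXCL9 and CXCL11, was at 5.76 ± 0.21 (SD, n = 9) in SIVE and 5.87 ± 0.13 in Control, a difference of -0.10 with a 95% confidence interval of -0.28 to 0.07. The ligand CX3CL1, one of the 5 members with the brightest probe sets, was at 7.42 ± 0.28 in SIVE and 7.44 ± 0.21 in Control (limma adjusted p = 0.945). Its receptor CX3CR1, known in the brain as a microglial gene, was at 5.81 ± 0.52 in SIVE and 5.96 ± 0.31 in Control (limma adjusted p = 0.674). CCR2, CCR6, CCR8, CCR10, CXCR6 and XCR1 differed by -0.09 to 0.00. CCR9 is not among the members and was not analysed here.

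The remaining ligands did not pass in SIVE against Control. The 9 CC ligands placed in the eosinophil and monocyte group, from CCL1 and CCL11 to CCL26, had a median difference of -0.09. The group name does not cover every target cell of each ligand. Of the 9, 8 lay below 0, as did 7863 of all 14132 genes, and the second probe set of CCL18 differed by 0.08. CCL11, CCL13, CCL16, CCL23 and CCL24 had both group means below the reporter gene percentile. CCL24 had the lowest value, -0.26 ± 0.10 (limma adjusted p = 0.138). CXCL8, which attracts neutrophils and whose means lay below the reporter gene percentile, was at 4.55 ± 0.24 (SD, n = 9) in SIVE and 4.25 ± 0.16 in Control, a difference of 0.30 ± 0.09 (limma adjusted p = 0.0773) that passed without SIVE 2 (0.33, adjusted p = 0.0383) or without SIVE 3 (0.33, adjusted p = 0.0489). It is next to CXCL6 in the RefSeq gene order, and CXCL6 differed by 0.05. CXCL16, CXCL17 and XCL1 differed by -0.03 to 0.03 on their representative probe sets. The second probe set of XCL1, which was dimmer, differed by 0.22 ± 0.11 and did not pass (limma adjusted p = 0.25). Of all 45 members, 19 had both group means below the 95th percentile of the reporter gene probe sets, so that a low level or a change in them may not be detectable.

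The anti-CD8 label was unevenly spread over the groups, so SIVE was also compared with Control within each label. Among animals without it (5 SIVE, 7 Control), 6 members were higher and none lower, against 3.64% and 1.13% of all genes. They were ACKR1, ACKR3, CCL4L1, CCL5, CCRL2 and CXCL8. CCL19 differed by 1.13 ± 0.33 there (limma adjusted p = 0.075) and CCL25 by 0.18 ± 0.08 (limma adjusted p = 0.232). Among animals with the label (4 SIVE, 2 Control), CCRL2 rose by 0.91 ± 0.19 (limma adjusted p = 0.027), the only member called, against 1.38% of genes higher and 0.127% lower. The count was 0 without SIVE 2, SIVE 3 or SIVE 4, and 0 without Control 8 or Control 9, where the lone treated control left is assumed to vary like the other groups. Without Control 5, which enters only through the shared spread, it was 3, with CCL5 higher and CCR4 lower beside CCRL2. The other 6 risers of the full comparison differed by 0.33 to 1.31 with the label and did not pass.

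CXCL8, the member with the lowest p in the test of whether the difference depends on the label, had means below the reporter gene percentile of 5.39 in every group. Without anti-CD8 it lay between 4.47 and 4.95 in 5 SIVE animals and between 4.08 and 4.44 in 7 Control animals. The difference was 0.48 ± 0.09 (limma adjusted p = 0.00673). With anti-CD8 it lay between 4.24 and 4.57 in 4 SIVE animals and at 4.38 and 4.51 in 2 Control animals, a difference of -0.06 ± 0.14. The lowest treated SIVE values were those of SIVE 2 and SIVE 3, at 4.24 and 4.27, the animals of high 3′ signal, and SIVE 1 and SIVE 4 stood at 4.57 and 4.45. The test of the difference between these effects gave -0.54 ± 0.17 with an unadjusted limma p of 0.00526 and an adjusted p of 1.00. It was the single member with an unadjusted p under 0.05 in that test, against 1.90% of all genes, and no member and 0% of all genes passed. Without SIVE 2, SIVE 3 and Control 8, which leaves 2 treated SIVE animals and 1 treated Control animal, it was -0.48 ± 0.22 (unadjusted limma p = 0.043, adjusted p = 0.709); the part of RNA quality was not tested otherwise. For the 7 risers the same test gave values from -0.30 for ACKR1 (95% confidence interval -1.02 to 0.42) to 0.19 for CCL5 (-0.67 to 1.04), intervals that do not exclude sizeable differences between treated and untreated animals.

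**Figure D5:**
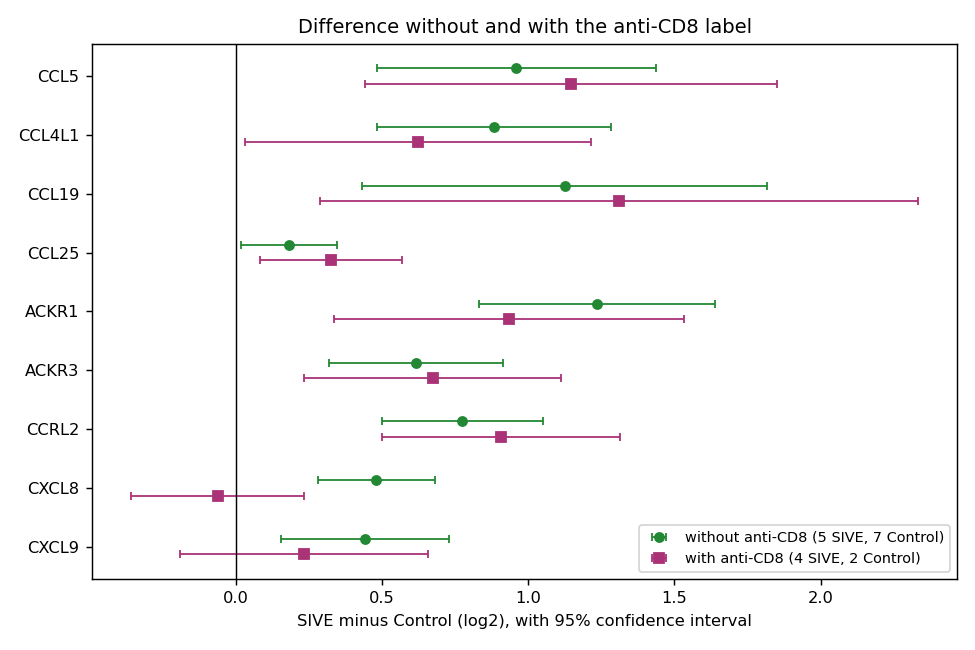
SIVE minus Control difference (log2, x axis) with 95% confidence intervals for 9 members (y axis) in animals without (circles) and with (squares) the anti-CD8 label. The intervals of the 7 risers overlap, while CXCL8 stands at 0.48 without the label and at -0.06 with it.

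Within SIVE, no member differed between the 4 animals with and the 5 without anti-CD8, and 0% of genes did (limma). At an unadjusted p under 0.05 there were 6 of 45 members, against 19.0% of all genes: CCRL2, CXCL16, CCR10 and CCL1 were higher with the label, by 0.40, 0.25, 0.24 and 0.19, and XCL1 and CXCL8 lower, by differences of -0.47 and -0.29 (limma adjusted p 0.304 to 0.307). SIVE 1 to SIVE 4 share an age of 6 years, above that of the other SIVE animals, and age and treatment cannot be told apart there. SIVE 2 and SIVE 3 were the extremes among the treated animals for all 6, as for CCR10 at 5.75 and 5.69 against 5.46 in SIVE 1 and 5.45 in SIVE 4. Without SIVE 2, SIVE 3 and Control 8 none of the 6 had an unadjusted limma p under 0.05, and their differences were 0.09 to 0.22 for the 4 higher members and -0.27 and -0.17 for XCL1 and CXCL8. CD8A, the target of such an antibody, was at 6.10 in treated and 6.43 in untreated SIVE animals (limma adjusted p = 0.515), and CD8B at 5.49 and 5.48.

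Some animals stood at the same end for several members. SIVE 8 had the lowest SIVE value of CCL5, CCL4L1, ACKR1 and CCRL2 and of the second probe set of CXCL11. SIVE 7 had the highest value of CCL4L1, CCL25, CXCL9, CXCL8 and the second probe set of CXCL11. SIVE 2, of high 3′ signal, had the highest SIVE value of CCL5, ACKR1, CXCR3 and CCR7, among other members. The lowest SIVE value of CCL24, CXCR3 and CCR7, among other members, was that of SIVE 9. Over the 9 SIVE animals, Pearson's r between the 7 risers ran from -0.57 (CCL5 and ACKR3) to 0.73 (ACKR1 and CCRL2), and none of the 21 pairs passed after Benjamini-Hochberg adjustment by a permutation test. For ACKR1 and CCRL2, Spearman's rho was 0.78 with a permutation p of 0.0172 (adjusted 0.178), the permutation p of r was 0.0233 (adjusted 0.396), and r was 0.47 without SIVE 2 and SIVE 3, the animals farthest from the median of ACKR1.

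Of 37 measured genes that act with chemokine receptors, 6 rose and none fell by limma, with a median difference of 0.06. Over all genes, 5.72% were called higher and 1.51% lower. CD74, the invariant chain and a receptor of the cytokine MIF, rose by 2.06 ± 0.20, and RGS1, which shuts off G protein signals of chemokine receptors, by 1.45 ± 0.23. RAC2, a GTPase of leukocyte movement, rose by 1.22 ± 0.17. The kinases LYN and FGR rose by 1.15 ± 0.16 and 0.42 ± 0.06, and GNAI3, an inhibitory G protein subunit, by 0.30 ± 0.08. For CD74, RGS1, RAC2 and FGR the groups did not overlap, and 1.84% of all genes had every SIVE animal above every Control animal. The other 31, among them the phosphoinositide kinases PIK3CG and PIK3CD and the peptidase DPP4, which trims chemokines, did not pass.

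Macrophage and monocyte markers separated the groups by their sum, and few markers of other leukocytes passed. The counts below stand against 5.72% of all genes called higher and 1.51% called lower. Of 9 measured macrophage and monocyte markers, CD14, LYZ, VSIG4 and AIF1 rose, by 1.18, 2.71, 2.39 and 0.83, and their summed signal was 11.39 to 11.84 in SIVE and 11.08 to 11.29 in Control, with no overlap. Of 5 measured homeostatic microglia markers, SLC2A5 rose and the other 4 did not pass. The median difference of the 5 was -0.10, and their summed signal was 9.85 to 10.88 in SIVE and 10.14 to 10.61 in Control. None of the 5 measured T cell markers (CD4, CD5, CD6, CD28 and TRAT1) passed, and their sum was 7.64 to 7.91 in SIVE and 7.63 to 8.07 in Control. Of 10 listed T cell markers only these were measured, and CD5, CD28 and TRAT1 lay below the median probe set level in both groups. Of 9 cytotoxic lymphocyte markers GZMB rose, by 2.36, and of 6 B and plasma cell markers JCHAIN, by 2.81. The other markers of these lists did not pass, and the median differences were -0.10 for the cytotoxic and -0.02 for the B and plasma cell list. The cytotoxic lymphocyte markers CD8B, NKG7 and EOMES and the B cell marker MS4A1 lay below the median probe set level in both groups. Of 5 neutrophil markers none rose and MPO fell by 0.24, and CSF3R, FPR1, ELANE and MMP9 lay below the median probe set level in both groups. The median difference of the neutrophil list was 0.04. The part of these cells in the differences of the members was not tested.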

How the data were processed

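The deposited table holds log2 signals of 52865 probe sets on 36 arrays, made by the authors with RMA per the submitters' processing notes, which give no version of it. RMA puts the arrays on 1 distribution, and dim probe sets are compressed towards background. There are no counts behind the signals, and precision rests on 9 animals a group. The 2 arrays of an animal were averaged and count as 1 replicate. After 99 Affymetrix control and 59 reporter gene probe sets were left out, 52707 were tested (two-sided) by lmFit and eBayes of limma 3.58.1, run under R 4.3.3, with Benjamini-Hochberg adjustment over all of them at 0.05. Comparisons by anti-CD8 label used 4 group means with a shared spread. Symbols came from the probe table; 4 chemokine probe sets with several symbols were not used. Probe sequences were not used here. All 45 members matched RefSeq genes of assembly T2T-MMU8v2.0, which was used for gene order.

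The members, the lists and the tests were chosen with earlier results of these data known. Named with values were members past 0.05 in any comparison, the 5 with the brightest probe sets (CCL25, CXCL11, CX3CL1, ACKR3 and ACKR1) and their pairing ligands or receptors; further members were named after their values were seen. The lists were chemokine signalling and trafficking genes and markers of 13 cell types; of those not given above, GFAP rose and SLC1A2 fell among 4 astrocyte markers, MBP fell among 2 oligodendrocyte markers, and neither of 2 choroid plexus markers passed. For comparison, 5.72% of all genes were called higher and 1.51% lower. A list's summed signal is log2 of the sum of its linear signals in an animal. Same-numbered SIVE and Control animals did not deviate together (correlations -0.49 to 0.09), so no block was used. The fit was also tested on simulated data with known changes. Permutation tests and figures used Python 3.11.15, scipy 1.17.1, numpy 2.4.6, pandas 2.3.3 and matplotlib 3.10.9.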

Additional observations from a re-analysis of the deposited data

Results flagged for a closer look

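In 94 groups of 9 animals, 4 had an animal far from the others by Dixon's test, and chance flags about 1 in 20 groups. ACKR1 in Control 8 was at 7.60, with the next Control animal at 6.83. CCL19 in Control 7 was at 4.69, the lowest of the Control animals, with the next at 5.12. CCL20 in SIVE 2 was at 4.60, with the next SIVE animal at 4.36. CCL23 in Control 5 was at 3.23, with the next Control animal at 3.00. Of these 4 values, 2 belong to Control 8 or SIVE 2, which have a high 3′ signal.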

How the results depend on the processing

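The count of members called in SIVE against Control was 7 and lay between 6 and 9 under the other settings and between 6 and 8 without 1 animal, except for 11 with the anti-CD8 label as a term (9 higher, 2 lower). CCL5, CCL4L1, ACKR3 and CCL19 passed under all 13 alternatives and all 18 fits without 1 animal, and so did CCRL2 under the 12 that tested it. ACKR1 lost its call only with the mean of all probe sets of a gene. CCL25 lost it under 4 of 13 alternatives. The probe set with the largest spread and the mean of probe sets both called CXCL11. That spread was the SD over all animals of both groups, so the group difference itself entered the choice of probe set. The call on it is therefore not separate support. CXCL9 passed under 7 of 12 alternatives and CXCL8 under 3 of 12. ACKR3, CCL19, CCRL2, CXCL9 and CXCL8 have 1 probe set each. For them the setting of largest spread repeats the main fit, and the mean of probe sets uses the same values. The second probe sets of CXCL11 and CCL5 passed wherever run. The setting without dim probe sets kept a probe set when either group mean reached the median level of 5.65. These second probe sets and the CCL19 probe set passed that filter only through SIVE, so it is not separate support for them. Among treated animals the count of 1 became 3 with the mean of probe sets, 0 without dim probe sets, 0 without the 3 animals of high 3′ signal, and 0 to 3 without 1 animal. With the replicate number as a block (replicate block) the counts were 6 of 45 for SIVE against Control, 2 (from 6) without anti-CD8 and 0 (from 1) with it; the labels link no same-numbered animals, 0 of 9 pairs had a correlation over 0.1, and 0 SIVE animals correlated best with their own number. The cause of these changes was not tested, except that without dim probe sets 23 members are left. Without anti-CD8 the count was 4 to 7 when 1 animal was left out, with 4 without SIVE 9. The small number of treated controls limits the comparisons by label.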
